A study of Chlorella sp. HS2 with 12 samples.

Results

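The genes described here are the 168 assembled genes of the proteasome and ubiquitin system of the green alga Chlorella sp. HS2, out of 57640 genes of an assembly made without a reference genome. A gene was a member if its best Swiss-Prot hit, at an E-value of at most 1e-10, had a description containing proteasome, ubiquitin, 26S protease, cullin, F-box, NEDD8 or SUMO. Descriptions with ribosomal or autophagy were left out, which removed 7 genes. The members were selected on measured counts too: a member needed at least 15 estimated counts summed over the 6 freshwater libraries and at least 15 over the 6 marine ones. The names alone matched 371 genes, and 23351 genes of the whole assembly had the minimum in both media. The series compares the alga in a freshwater inorganic medium with a marine inorganic medium holding 3% (w/v) sea salt. In each medium RNA was taken in exponential phase, at day 4 after inoculation, and in stationary phase, at day 6. These 4 groups have 3 libraries each, which the series calls biological replicates, from autotrophic cultures in photobioreactors with a continuous carbon dioxide supply. All groups are 1 strain.

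The ubiquitin system marks proteins for destruction. An E1 enzyme activates ubiquitin, an E2 enzyme carries it, and an E3 ligase, either a single protein or a cullin complex with an F-box or other adaptor, attaches it to a chosen protein. The 26S proteasome then unfolds and degrades the marked protein: the ATPase ring and the non-ATPase subunits of its 19S cap bind and thread the substrate, and the beta subunits of its 20S core cut it. Deubiquitinases remove ubiquitin again, and the related modifiers NEDD8, SUMO and UFM1 have enzymes of their own. In plants and algae the system takes part in growth control, protein quality control and, at the chloroplast envelope, the supply of imported proteins.

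By role, the members were 13 genes named as 20S subunits, 11 as ATPases of the 19S cap, 13 as its non-ATPase subunits, 4 as other proteasome proteins, 6 as ubiquitin, 1 as E1, 14 as E2, 44 as E3 ligases, 3 as parts of cullin ligases, 12 as F-box proteins, 18 as ubiquitin-like modifiers or their enzymes, 23 as deubiquitinases and 6 as other proteins. A name is that of the best hit and no more. Arabidopsis thaliana gave the best hit of 92 members, Homo sapiens of 16 and Mus musculus of 12. Of the 168, 53 also carry a proteasome or ubiquitin family in the deposited KEGG BRITE lines. The check of the label found a group of sequences that stood apart. In 18 members the hit was mammalian at a similarity of 98.6% to 100%, and these sequences were short, from 217 to 832 bases with a median of 271. The other 150 members had a median similarity of 67.5% and a median length of 3895 bases. The 18 had a summed level of 640.5 CPM, a read count normalised to the scaled library size, in freshwater exponential replicate 3 and 0.41 CPM in replicate 2 of the same group. Their highest summed level elsewhere was 148 CPM, in freshwater exponential replicate 1, and their source was not tested. Only 6 of the 18 passed the filter on low counts, and none of these was called in any of the comparisons below, so the results rest on the other members.

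**Figure D1:**
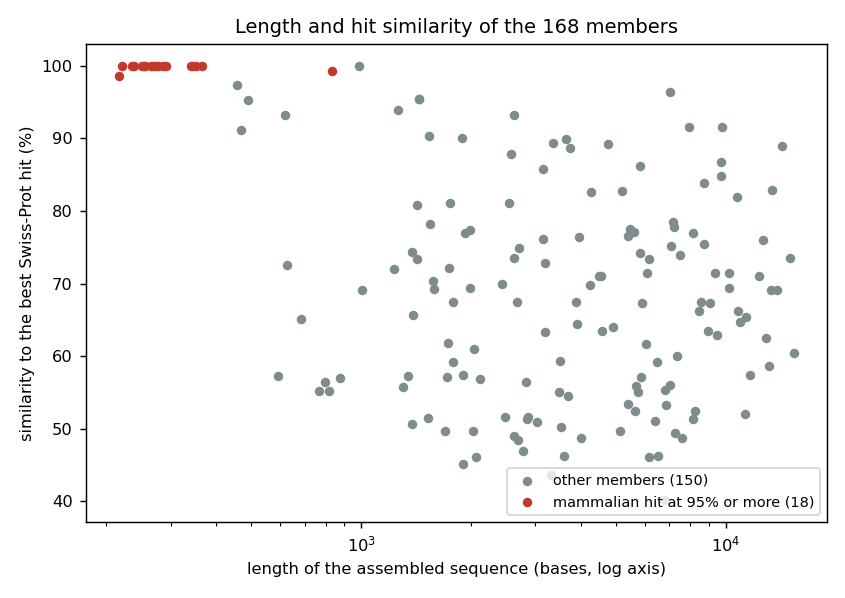
Each point is 1 of the 168 members, placed by the length of its assembled sequence (bases, log axis) and the similarity of its best Swiss-Prot hit (percent). The 18 members with a mammalian hit at 95% or more (red) lie at 217 to 832 bases, left of most of the other 150 (grey), which reach 15366 bases.

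Many members are long for their product, up to 15366 bases, and RNA was sequenced without strand, so reads of overlapping or antisense transcripts cannot be told apart from those of the member. Genes with the same name may be paralogs or pieces of 1 gene, and read assignment between them is uncertain. TRINITY_DN4287_c0_g1 and TRINITY_DN4287_c0_g4, both named as 19S ATPase subunit 8, had identical counts in every library and are 1 measurement. Levels are therefore compared between libraries and not between genes.

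Library totals ran from 9378062 to 11280675 counts. The libraries of a group were not equally distant from each other. Library codes share a stem for the 3 marine exponential libraries and for marine stationary replicates 1 and 2, and these differed from each other by a median of 0.106 to 0.147 on the log2 scale over genes. Freshwater replicates differed by 0.269 to 0.403, and marine stationary replicate 3 differed from the other two by 0.497 to 0.501. The labels do not say whether shared stems mark repeat libraries of 1 culture, and p-values then measure the spread between libraries, which may be technical in the marine groups. Green algal marker names (antenna, Rubisco, photosystem and phytoene enzymes; 60 of 62 detected) summed to 136000 to 155000 CPM in freshwater exponential libraries and to 5000 to 8630 CPM in the other libraries. Bacterial marker names (13 of 13 detected) summed to 201 to 314 CPM, fungal ones (2 of 2) to 102 to 537 CPM, and animal ones (3 of 5) to at most 6.01 CPM. Their part in the results was not tested. In bulk RNA, fewer cells and less RNA of a gene per cell cannot be told apart.

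Counts were tested for all 31491 genes that passed a filter on low counts, with edgeR's quasi-likelihood test and a Benjamini-Hochberg false discovery rate (FDR). A gene is called at an FDR under 0.05, and rose or fell is said only of called genes. Log2 fold changes stand with their standard error (SE), and "kept in 3 of 12" means that the call held in that many of the 12 fits with 1 library left out. Those fits still count shared-stem libraries as separate samples, so the FDR with such libraries summed stands beside it as the stem-summed FDR. Of 143 calls of the members named below, 70 were kept in all 12 fits and 32 with the shared-stem libraries summed. The filter kept 155 of the 168 members; 1 of the 13 lost was not among the 18 short sequences above. The change between the phases does not itself enter the rule. The sums of the rule run over both phases of a medium, so a gene near 0 in 1 phase can pass through the other. On entry into stationary phase in freshwater 53 members rose and 13 fell, where 6.46% of all tested genes rose and 4.42% fell. Called genes are commoner at high counts. Among tested genes of both media whose mean log2 CPM was 3 or more, the well-counted genes, 19.2% rose and 15.5% fell, and among the 140 members that high 37.1% rose and 9.29% fell. In marine medium 0 members rose and 1 fell between the same phases, where 0.311% of tested genes rose and 1.32% fell, and 0.801% and 4.93% of the well-counted genes. The 53 members that rose in freshwater had a median log2 fold change of 0.87 there, a value made high by their selection. In marine medium, from other libraries, their median was -0.09, and 37 of the 53 lay below 0. All 155 tested members had medians of 0.39 in freshwater and -0.09 in marine medium, where 93 lay below 0. The 21428 tested genes of both media had medians of 0.27 and 0.17, and 9089 of them lay below 0 in marine medium. In freshwater the member median thus lay 0.12 above that of these genes, with a range of -0.12 to 0.15 with 1 library left out. The marine median of the 53 was thus that of the members as a whole.

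Marine medium against freshwater was compared within each phase. Since a member must have the minimum count in both media, genes found in 1 medium only are absent by the rule, and these counts are a description. In exponential phase 45 members were higher in marine medium and 13 lower, beside 9.3% and 10.8% of all tested genes. Among the 140 well-counted members 31.4% were higher and 8.57% lower, beside 25.0% and 23.1% of the well-counted genes. In stationary phase 26 were higher and 44 lower, beside 9.02% and 17.3% of all tested genes. With the identical pair counted once, 43 were lower. Among the 140 well-counted members these shares were 17.9% and 31.4%, near the 19.8% and 28.8% of the well-counted genes. The interaction of medium and phase was tested as the stationary salt effect minus the exponential one. It called 6 members higher and 39 lower, beside 2.38% and 4.79% of tested genes. Among the 140 well-counted members the shares were 4.29% and 27.9%, beside 8.31% and 16.9% of the well-counted genes.

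These counts depend on the libraries and on the scaling. Entry into stationary phase in freshwater gave 25 to 39 called members without any 1 of the 3 freshwater exponential, 3 freshwater stationary or 3 marine exponential libraries, against 66 with all. Marine against freshwater in exponential phase gave 35 and 38 without freshwater exponential replicates 2 and 3 and 29 to 31 without any 1 marine exponential library, against 58. In stationary phase it gave 46 without freshwater stationary replicate 3 and 43 and 44 without marine stationary replicates 1 and 2, against 70. Without marine stationary replicate 3, 19 members fell between the marine phases and 0 rose, against 1; without others of the 12 libraries that count was 0 to 2. The interaction gave 10 to 25 called members without any 1 of the 3 freshwater exponential, freshwater stationary replicates 2 and 3, the 3 marine exponential or marine stationary replicates 1 and 2, against 45. With the shared-stem libraries summed, the counts were 9, 18, 6, 0 and 0 for the salt effects in exponential and stationary phase, the phases in freshwater and marine medium, and the interaction. Under scaling to library totals alone the split of higher to lower calls became 102 to 5 in exponential phase and 60 to 16 in stationary phase, and the median of all tested genes moved by 0.60 and 0.58 on the log2 scale. With the genes of each assembly component summed the split for salt in exponential phase was 29 to 25 and that for the freshwater phases 23 to 17.

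**Figure D2:**
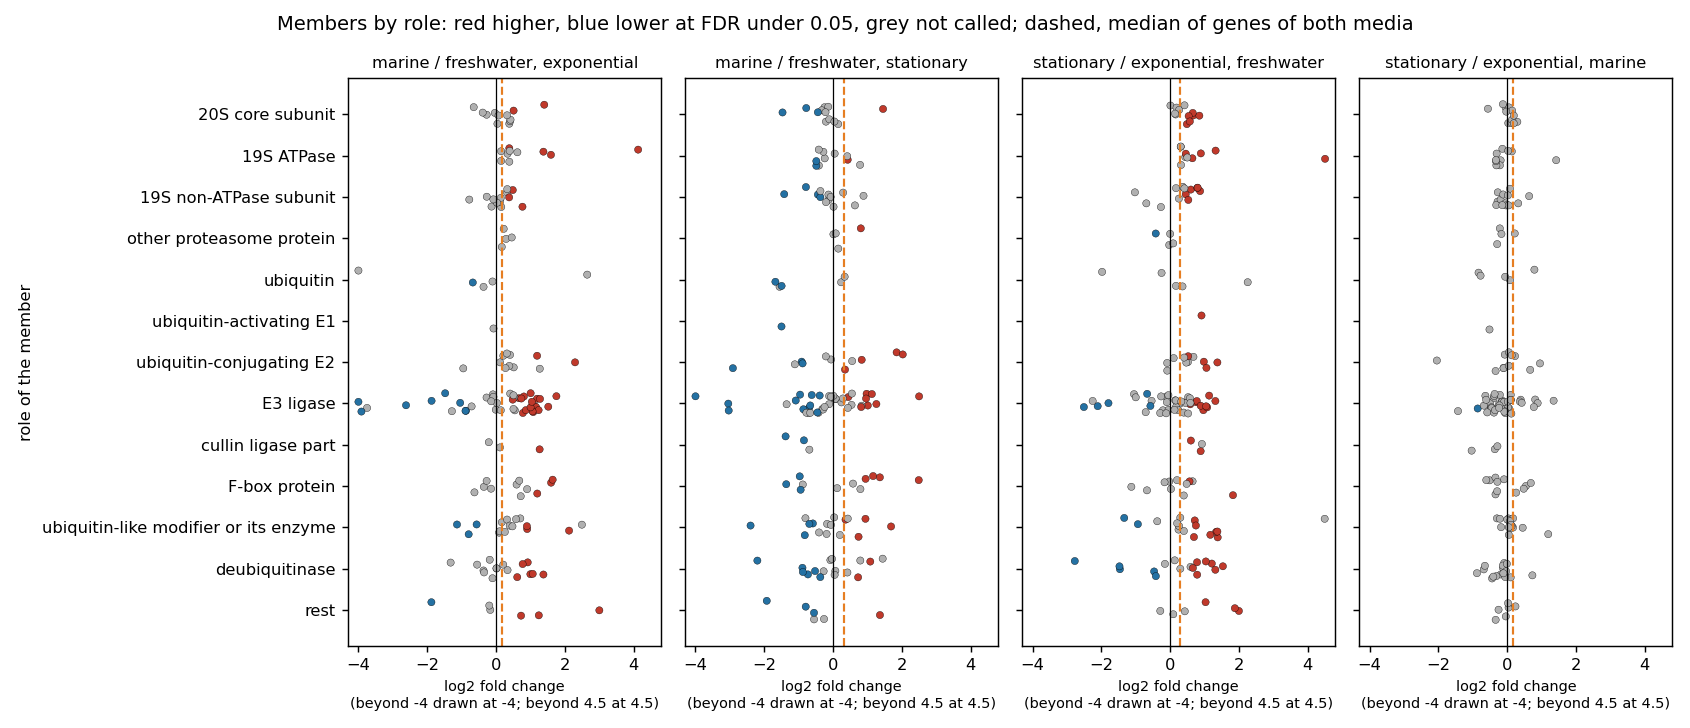
Log2 fold changes (x axis) of the 149 tested members outside the short mammalian-hit group, by role (y axis), in 4 comparisons; red and blue points are called higher and lower at an FDR under 0.05 and grey points are not called. The dashed line is the median of tested genes of both media, at 0.16, 0.30, 0.27 and 0.17 from left to right; in the right panel 1 point is called.

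Of the 35 genes named as 20S or 19S subunits outside the short group, 17 rose and 0 fell as freshwater cultures entered stationary phase, and 0 were called in marine medium. The 17 are 48.6% of the 35, beside 19.2% of the well-counted genes. Marine medium raised 9 (25.7%, beside 25.0%) and lowered 0 (beside 23.1%) in exponential phase, and raised 2 (5.71%, beside 19.8%) and lowered 9 (25.7%, beside 28.8%) in stationary phase. The identical pair of subunit 8, which is 1 measurement, stands as 2 genes among the 35 and among the 9 lowered. Over the same freshwater phases the summed level of the green algal marker names went from 136000 to 155000 CPM to 5550 to 8410 CPM, and its part in the rises was not tested. The lowest sums of the 35 genes, 244 counts in freshwater and 882 in marine medium, are far above the minimum of the rule. The 17 nevertheless include a low gene named subunit 7 (TRINITY_DN1735_c0_g1) that passed the freshwater minimum through the stationary libraries. The freshwater rises depended on the libraries: 2 to 6 were called without any 1 of the freshwater exponential, freshwater stationary or marine exponential libraries, 13 and 11 without marine stationary replicates 1 and 2, 18 without replicate 3, and 0 with the shared-stem libraries summed. Without marine stationary replicate 3, 6 fell between the marine phases and 15 were lower with salt in stationary phase, against 4 to 8 lower without any other library. In exponential phase 3 to 7 were higher with salt without any 1 library other than marine stationary replicate 3, and 12 without that. With 1 library left out in turn, 0 to 3 were lower with salt in exponential phase, against 0 with all libraries. The 3 were lower without freshwater stationary replicate 2, where 5 were higher. The place of these 35 among genes of both media moved less. Their median log2 fold change lay 0.51 below the median of genes of both media for marine against freshwater in stationary phase, from 0.33 to 0.64 below over the alternatives fitted per gene, and 0.42 below for the interaction, from 0.18 to 0.60 below. For the entry into stationary phase it lay 0.18 above in freshwater, with a range of -0.05 to 0.31, and 0.20 below in marine medium, from 0.15 to 0.31 below. For salt in exponential phase it lay 0.16 above, with a range of -0.002 to 0.28. The genes of both media include genes of low counts, and no median of the well-counted genes alone was taken. Whether these distances are particular to the 35 or shared by well-counted genes was therefore not tested.

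**Figure D3:**
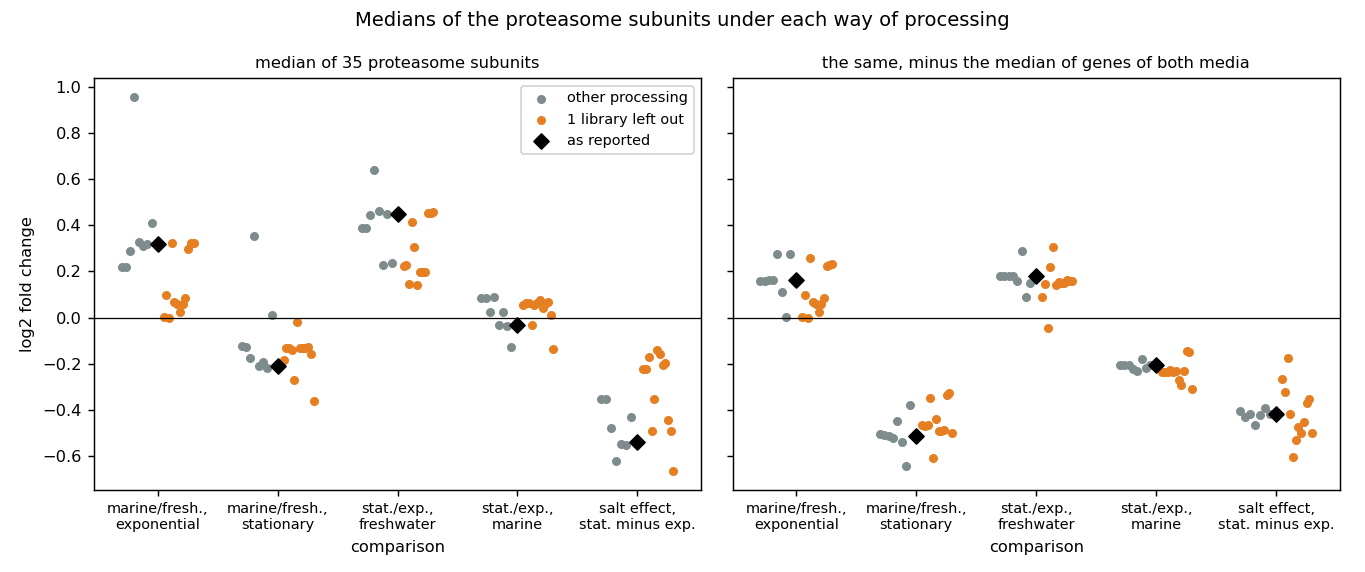
Median log2 fold change of the 35 subunit genes (left) and the same minus the median of genes of both media (right) in the 5 comparisons, as reported (diamond), under other processing (grey) and with 1 library left out (orange). On the right all points for marine against freshwater in stationary phase lie between -0.64 and -0.33, while on the left they run from -0.36 to 0.35. The genes of both media include genes of low counts.

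The 20S core was represented by 12 genes outside the short group, 5 alpha and 7 beta subunits. In freshwater 6 rose on entry into stationary phase and 0 fell, beside 19.2% and 15.5% of the well-counted genes. The 6 rises were kept in 0 to 5 of the 12 fits with 1 library left out. The log2 fold changes of the 12 genes ran from 0.01 to 0.85 with a median of 0.45. The median of tested genes of both media, which include genes of low counts, was 0.27 in this comparison. The summed level of the 12 was 1411, 1509 and 1508 CPM in freshwater exponential libraries and 2146, 1691 and 2100.0 in freshwater stationary ones. In marine libraries it was 1570.0, 1475 and 1549 in exponential and 1363, 1373 and 1842 in stationary phase, so that marine stationary replicate 3 stood above its group. The largest rise was that of alpha type-7 (TRINITY_DN2127_c0_g1), a subunit of the outer alpha ring, at 0.85 (SE 0.15, FDR 0.0052, kept in 5 of 12, stem-summed FDR 0.293). Beta type-5-B (TRINITY_DN3559_c0_g1), named after the subunit with the chymotrypsin-like site, was at 233, 243 and 247 CPM in the freshwater exponential libraries, 378, 315 and 319 in freshwater stationary, 251, 249.9 and 258 in marine exponential and 224, 225 and 295 in marine stationary. Its groups did not overlap between the freshwater phases, with 0.48 (SE 0.12, FDR 0.0313, kept in 3 of 12, stem-summed FDR 0.351).

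With salt, 2 of the 12 20S genes were higher in exponential phase (16.7%, beside 25.0% of the well-counted genes) and 0 lower (beside 23.1%). In stationary phase 4 were called, 1 higher (8.33%, beside 19.8%) and 3 lower (25.0%, beside 28.8%). None of these shares lies above that of the well-counted genes. A gene named beta type-6 (TRINITY_DN1062_c4_g1), after the subunit with the caspase-like site, was at 41, 36 and 34.1 CPM in the freshwater exponential libraries, 42.8, 37.6 and 42.1 in freshwater stationary, 98.9, 94.2 and 100.2 in marine exponential and 110.3, 111 and 113 in marine stationary. Every marine library stood above every freshwater library. Its log2 fold change was 1.40 (SE 0.10, FDR 7.73e-06, kept in 12 of 12, stem-summed FDR 0.0369) in exponential phase and 1.45 (SE 0.10, FDR 8.6e-06, kept in 12 of 12, stem-summed FDR 0.00832) in stationary phase, and both calls held in every alternative. The other gene with that name (TRINITY_DN2562_c0_g2) was at 36.6, 30.1 and 28.9 CPM in the freshwater exponential libraries, 49, 43.8 and 49.4 in freshwater stationary, 44.1, 39.5 and 44.3 in marine exponential and 44.4, 46.4 and 55 in marine stationary. Its salt effects were not called, at 0.42 (FDR 0.056) and 0.04 (FDR 0.9), and the difference between these genes was not tested. Alpha type-7 was higher with salt in exponential phase, at 0.51 (SE 0.15, FDR 0.0418, kept in 1 of 12, stem-summed FDR 0.498). In stationary phase 3 of the 20S genes were lower in marine medium. Alpha type-3 (TRINITY_DN886_c0_g2) was at 371, 285 and 396 CPM in freshwater and 96.3, 92.6 and 191 in marine stationary libraries, a change of -1.47 (SE 0.27, FDR 0.00317, kept in 12 of 12, stem-summed FDR 0.093). Its marine stationary replicate 3 lay near the marine exponential libraries, at 194, 189 and 178. Beta type-4 (TRINITY_DN1417_c0_g1) changed by -0.78 (SE 0.15, FDR 0.00429, kept in 12 of 12, stem-summed FDR 0.22). Beta type-5-B changed by -0.44 (SE 0.12, FDR 0.0279, kept in 4 of 12, stem-summed FDR 0.28), a direction that turned to 0.12 under scaling to library totals. The other 7 genes, alpha type-1-B, alpha type-2, alpha type-4, beta type-1, beta type-2-A, beta type-7-A and the remaining beta type-6, were called for salt in neither phase.

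The ATPase ring of the 19S cap pulls substrates into the core. Its 10 genes outside the short group covered all ATPase names of the ring, with the identical pair counted as separate genes. On entry into stationary phase in freshwater 5 rose and 0 fell, beside 19.2% and 15.5% of the well-counted genes. The 5 include the low gene TRINITY_DN1735_c0_g1, whose rise is only a description. Subunit 6A (TRINITY_DN491_c1_g1) was at 68.8, 49.5 and 47.1 CPM in the freshwater exponential libraries, 161, 121 and 130.5 in freshwater stationary, 173, 166 and 160.5 in marine exponential and 162, 159.8 and 226 in marine stationary. The freshwater exponential libraries were the lowest of all 12. Its rise was 1.32 (SE 0.19, FDR 0.00117, kept in 12 of 12, stem-summed FDR 0.0594) in freshwater and its salt effect in exponential phase was 1.59 (SE 0.19, FDR 0.000194, kept in 12 of 12, stem-summed FDR 0.0329); the latter held in every alternative. Subunit 4, homolog A (TRINITY_DN360_c2_g1) was at 96.7, 97 and 96.2 CPM in the freshwater exponential libraries, 137, 167 and 148 in freshwater stationary, 252, 251 and 248 in marine exponential and 208, 202 and 198 in marine stationary. All marine libraries stood above all freshwater ones. Salt raised it by 1.38 (SE 0.09, FDR 3.98e-06, kept in 12 of 12, stem-summed FDR 0.0143) in exponential phase, which held in every alternative, and by 0.42 (SE 0.09, FDR 0.00794, kept in 12 of 12, stem-summed FDR 0.118) in stationary phase. The other gene named subunit 4 (TRINITY_DN3483_c1_g1) was not called for salt, at 0.38 (FDR 0.192) and -0.24 (FDR 0.438).

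Subunit 10B (TRINITY_DN491_c1_g2) rose in freshwater by 0.89 (SE 0.20, FDR 0.0153, kept in 3 of 12, stem-summed FDR 0.137). Subunit 6B (TRINITY_DN3483_c0_g3) rose by 0.45 (SE 0.11, FDR 0.0289, kept in 3 of 12, stem-summed FDR 0.351) in freshwater and by 0.38 (SE 0.11, FDR 0.038, kept in 1 of 12, stem-summed FDR 0.377) with salt in exponential phase; with its assembly component summed these became -0.063 and -0.10. Subunit 8, counted once for the identical pair, was lower with salt in stationary phase, at -0.49 (SE 0.12, FDR 0.0188, kept in 4 of 12, stem-summed FDR 0.284), which became 0.075 under scaling to library totals. Another gene of that name (TRINITY_DN360_c2_g3), of 489 bases, was not called in any comparison. Subunit 7 had a gene at moderate levels (TRINITY_DN4287_c0_g2), from 91.0 to 139.9 CPM over all libraries and not called, and a low gene whose best hit was the yeast protein (TRINITY_DN1735_c0_g1). The low gene was at 0, 0.546 and 0.432 CPM in the freshwater exponential libraries, 6.06, 10.9 and 10.4 in freshwater stationary, 4.52, 6.72 and 6.33 in marine exponential and 20.8, 17.7 and 8.63 in marine stationary. This gene passed the freshwater minimum through the stationary libraries, where it is high, so its freshwater rise is only a description. It was near 0 in freshwater exponential libraries alone, with 4.76 (SE 0.91, FDR 0.00642, kept in 12 of 12, stem-summed FDR 0.196) for the freshwater phases and 4.13 (SE 0.88, FDR 0.00796, kept in 9 of 12, stem-summed FDR 0.33) for salt in exponential phase; such a fitted fold depends on the prior count.

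The non-ATPase subunits recognise and release ubiquitin and hold the cap together. Of 13 genes 6 rose in freshwater on entry into stationary phase (46.2%, beside 19.2% of the well-counted genes) and 0 fell (beside 15.5%). In stationary phase 4 were lower in marine medium (30.8%, beside 28.8%, so near the background) and 0 higher (beside 19.8%). Subunit 1 (TRINITY_DN2854_c0_g1), a large scaffold of the cap, was at 169, 189 and 161 CPM in the freshwater exponential libraries, 315, 318 and 317 in freshwater stationary, 145, 148 and 138 in marine exponential and 103, 96 and 156 in marine stationary. The freshwater stationary libraries were above all others. Its salt effect in stationary phase was -1.42 (SE 0.17, FDR 0.000199, kept in 12 of 12, stem-summed FDR 0.0154), which held in every alternative, and it rose in freshwater by 0.87 (SE 0.17, FDR 0.00634, kept in 4 of 12, stem-summed FDR 0.108). Subunit 2 (TRINITY_DN2745_c0_g3), the other large scaffold and a docking site for ubiquitin receptors, was at 81, 92.4 and 81.2 CPM in the freshwater exponential libraries, 168, 122 and 149 in freshwater stationary, 107, 108 and 103 in marine exponential and 74.5, 73.8 and 106 in marine stationary. Its stationary salt effect was -0.79 (SE 0.16, FDR 0.00636, kept in 12 of 12, stem-summed FDR 0.239), and its rise in freshwater was 0.79 (SE 0.16, FDR 0.0103, kept in 4 of 12, stem-summed FDR 0.264), which turned to -1.17 with its assembly component summed. Subunit 6 (TRINITY_DN160_c0_g2) was at 36.1, 35.7 and 38.3 CPM in the freshwater exponential libraries, 65.6, 62.4 and 63.3 in freshwater stationary, 61.8, 62.2 and 63.3 in marine exponential and 56.7, 57.5 and 78.6 in marine stationary. It was lowest in the freshwater exponential libraries, with a rise of 0.80 (SE 0.13, FDR 0.00291, kept in 5 of 12, stem-summed FDR 0.251) in freshwater and of 0.77 (SE 0.13, FDR 0.00219, kept in 6 of 12, stem-summed FDR 0.212) with salt in exponential phase.

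Subunit 14 (TRINITY_DN383_c0_g1), the metalloprotease that cuts ubiquitin from the substrate, ran from 68.2 to 78.5 CPM in freshwater exponential and from 99.0 to 102 in freshwater stationary libraries. Its rise was 0.45 (SE 0.12, FDR 0.0386, kept in 1 of 12, stem-summed FDR 0.357). With salt it was lower in stationary phase, at -0.37 (SE 0.12, FDR 0.0454, kept in 1 of 12, stem-summed FDR 0.573), which became 0.19 under scaling to library totals. The ubiquitin receptor subunit 4 (TRINITY_DN2741_c0_g2) rose by 0.53 (SE 0.12, FDR 0.0137, kept in 2 of 12, stem-summed FDR 0.353) in freshwater and by 0.48 (SE 0.11, FDR 0.0136, kept in 4 of 12, stem-summed FDR 0.464) with salt in exponential phase. Subunit 11 rose in freshwater by 0.60 (SE 0.16, FDR 0.0414, kept in 1 of 12, stem-summed FDR 0.352), subunit 7 rose with salt in exponential phase by 0.38 (SE 0.11, FDR 0.0342, kept in 1 of 12, stem-summed FDR 0.503), and subunit 13 was lower with salt in stationary phase, at -0.44 (SE 0.14, FDR 0.046, kept in 2 of 12, stem-summed FDR 0.51), which became 0.13 under scaling to library totals. Subunits 3, 8 and 12 and both genes named after the receptor RPN13 were not called in any comparison. Of the latter, the gene with the human ADRM1 name (TRINITY_DN4901_c0_g2) had 79.7, 84.9 and 0 CPM in freshwater exponential libraries, so that 1 library alone held no count.

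**Figure D4:**
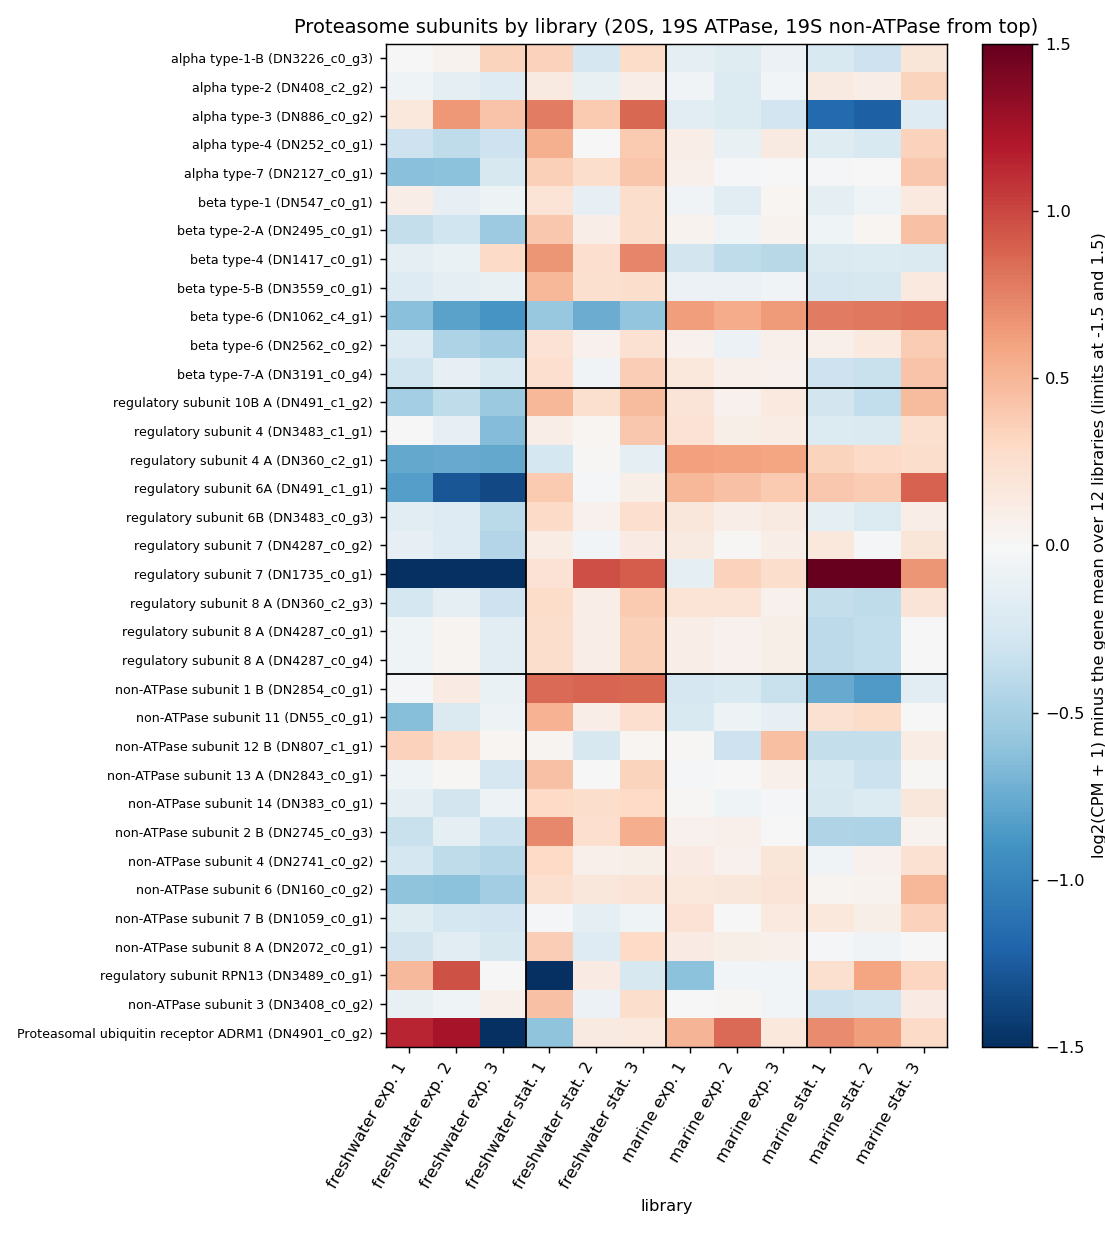
Rows are the 35 genes named as 20S or 19S subunits and columns the 12 libraries; colour is log2(CPM + 1) minus the mean of the gene over the libraries, drawn from -1.5 to 1.5. Beta type-6 (DN1062_c4_g1) is low in all 6 freshwater and high in all 6 marine libraries, and marine stationary replicate 3 differs from replicates 1 and 2 in many rows.

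Of the other proteasome proteins, the gene named as proteasome inhibitor (TRINITY_DN2084_c0_g1), a PI31-type protein, fell in freshwater and was higher with salt in stationary phase. It was at 50.7, 56.1 and 60.3 CPM in the freshwater exponential libraries, 41.6, 42.4 and 40.9 in freshwater stationary, 56, 61.6 and 69.8 in marine exponential and 71.1, 78.6 and 68.2 in marine stationary. Freshwater stationary libraries were the lowest, and the salt effect there was 0.80 (SE 0.12, FDR 0.000878, kept in 12 of 12, stem-summed FDR 0.0663). Genes named activator subunit 4 (TRINITY_DN4559_c0_g2 and TRINITY_DN4559_c0_g4), after the large activator that can replace the cap, were not called in any comparison. They belong to 1 assembly component and may be pieces of 1 gene.

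Of 5 tested genes named as ubiquitin, 2 were lower with salt in stationary phase and 0 higher, beside 28.8% and 19.8% of the well-counted genes. Between the phases 0 were called in either medium. The gene with the name of the ubiquitin and NEDD8 fusion RUB2 (TRINITY_DN1660_c0_g1) ran from 5383 to 9520.0 CPM over the libraries, and its groups overlapped in every comparison, with none called. The short polyubiquitin fragment of the same component (TRINITY_DN1660_c0_g4, 469 bases) was at 689, 688 and 594 CPM in the freshwater exponential libraries, 703, 721 and 789 in freshwater stationary, 427, 337 and 468 in marine exponential and 193, 186 and 312 in marine stationary. All marine libraries lay below all freshwater ones. Its salt effect was -0.68 (SE 0.20, FDR 0.0362, kept in 11 of 12, stem-summed FDR 0.397) in exponential and -1.68 (SE 0.20, FDR 0.000244, kept in 12 of 12, stem-summed FDR 0.00845) in stationary phase, but the component summed gave 0.20 in stationary phase. Another ubiquitin gene (TRINITY_DN1521_c1_g1) was at 261, 371 and 361 CPM in the freshwater exponential libraries, 400, 451 and 420.2 in freshwater stationary, 263, 256 and 252 in marine exponential and 131, 131 and 188 in marine stationary. In stationary phase the media did not overlap, with -1.50 (SE 0.17, FDR 0.000179, kept in 12 of 12, stem-summed FDR 0.0149), which held in every alternative.

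The only E1 among the members (TRINITY_DN2217_c0_g1), the enzyme that starts all ubiquitin transfer, was at 196, 246 and 228 CPM in the freshwater exponential libraries, 449, 372 and 427 in freshwater stationary, 211, 209 and 206 in marine exponential and 129, 129 and 175 in marine stationary. It was highest in freshwater stationary and lowest in marine stationary libraries. On entry into stationary phase in freshwater it rose by 0.90 (SE 0.14, FDR 0.00233, kept in 12 of 12, stem-summed FDR 0.0758), and in stationary phase the salt effect was -1.53 (SE 0.14, FDR 5.43e-05, kept in 12 of 12, stem-summed FDR 0.00809). The stationary salt call held in every alternative. Its salt effect in exponential phase was not called, at -0.10 (FDR 0.688), and the interaction was called at -1.43 (SE 0.20, FDR 0.00195, kept in 12 of 12, stem-summed FDR 0.19).

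Of 11 tested E2 genes outside the short group, 4 rose in freshwater on entry into stationary phase and 0 fell, while salt in stationary phase raised 4 and lowered 3. The freshwater rises are 36.4%, beside 19.2% of the well-counted genes, and the salt calls 36.4% and 27.3%, beside 19.8% and 28.8%. The gene named E2 2 of fission yeast (TRINITY_DN2184_c0_g1), after the enzyme that modifies histone H2B there, was at 238, 227 and 168 CPM in the freshwater exponential libraries, 409, 409.5 and 429 in freshwater stationary, 280.2, 250.3 and 307 in marine exponential and 174, 169 and 319 in marine stationary. It was lower with salt in stationary phase, at -0.91 (SE 0.23, FDR 0.0187, kept in 7 of 12, stem-summed FDR 0.243); marine stationary replicate 3 lay above replicates 1 and 2. E2 1 (TRINITY_DN1713_c0_g1) was not called in any comparison.

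Cullin ligases are modular E3 enzymes. The 3 members named after their parts were called for a lower salt effect in stationary than in exponential phase, beside 16.9% of the well-counted genes. The difference was -1.17 for cullin-3A (FDR 0.0434, kept in 1 of 12) and -1.96 for CAND1 (FDR 0.0132, kept in 4 of 12), so these calls depended on the libraries. Cullin-3A (TRINITY_DN632_c0_g2), a scaffold that works with BTB adaptors, was at 240, 319.5 and 251 CPM in the freshwater exponential libraries, 467, 479 and 551 in freshwater stationary, 238, 217 and 245 in marine exponential and 166, 142 and 266 in marine stationary. Its salt effect in stationary phase was -1.38 (SE 0.22, FDR 0.00127, kept in 12 of 12, stem-summed FDR 0.0507). The exchange factor CAND1 (TRINITY_DN227_c0_g1, named cullin-associated NEDD8-dissociated protein 1) was at 95.3, 124 and 121 CPM in the freshwater exponential libraries, 230.4, 209 and 203 in freshwater stationary, 266, 292 and 258 in marine exponential and 91.6, 96.1 and 211 in marine stationary. Salt raised it in exponential phase by 1.26 (SE 0.28, FDR 0.00963, kept in 6 of 12, stem-summed FDR 0.115), but its component summed gave -0.86 and an interaction of -0.058, and its marine stationary replicate 3 stood far above replicates 1 and 2. Among F-box adaptors, SKIP16 (TRINITY_DN850_c0_g1) was at 63.9, 50.1 and 61.8 CPM in the freshwater exponential libraries, 98.2, 84.8 and 76.4 in freshwater stationary, 173, 171 and 188 in marine exponential and 183, 181 and 135 in marine stationary. All marine libraries were above all freshwater ones, with 1.60 (SE 0.15, FDR 4.73e-05, kept in 12 of 12, stem-summed FDR 0.0347) in exponential phase, which held in every alternative. F-box/LRR-repeat protein 15 (TRINITY_DN975_c0_g1) was higher with salt in both phases, by 1.64 (SE 0.12, FDR 7.76e-06, kept in 12 of 12, stem-summed FDR 0.0402) and 1.16 (SE 0.12, FDR 9.25e-05, kept in 12 of 12, stem-summed FDR 0.0354), and both calls held in every alternative. Tubby-like F-box protein 5 (TRINITY_DN688_c0_g1) was lower with salt in stationary phase, at -1.36 (SE 0.18, FDR 0.000458, kept in 12 of 12, stem-summed FDR 0.0388), which also held in every alternative.

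E3 ligases were the largest role, with 41 tested genes outside the short group. Salt in exponential phase raised 18 and lowered 8, salt in stationary phase raised 8 and lowered 11, and entry into stationary phase raised 10 and lowered 5 in freshwater. As shares these are 43.9% and 19.5%, 19.5% and 26.8%, and 24.4% and 12.2%, beside 25.0% and 23.1%, 19.8% and 28.8%, and 19.2% and 15.5% of the well-counted genes, so the last 2 pairs lie near the background. The largest salt change of a called member was that of a gene whose best hit, at 46.2% similarity, was TRIM71 of zebrafish (TRINITY_DN4143_c0_g1), in animals an RNA-binding ligase. It was at 240.2, 344 and 345 CPM in the freshwater exponential libraries, 49.6, 40.8 and 72.8 in freshwater stationary, 1.11, 0.891 and 0.845 in marine exponential and 1.17, 1.14 and 1.54 in marine stationary. Marine libraries were near 1 CPM and freshwater ones at 40.8 CPM or more. The salt effects were -8.33 (SE 0.32, FDR 2.51e-07, kept in 12 of 12, stem-summed FDR 0.00257) in exponential phase and -5.40 (SE 0.28, FDR 1.74e-06, kept in 12 of 12, stem-summed FDR 0.00178) in stationary phase, and the change between the freshwater phases was -2.51 (SE 0.23, FDR 8.55e-05, kept in 12 of 12, stem-summed FDR 0.00673); all 3 calls held in every alternative. ARI2 (TRINITY_DN1247_c0_g1), a RING-between-RING ligase, was at 247, 288 and 309.9 CPM in the freshwater exponential libraries, 490.2, 449.7 and 504 in freshwater stationary, 78.1, 75.7 and 76.3 in marine exponential and 62.5, 60.6 and 53 in marine stationary. Salt lowered it in both phases, with -1.88 (SE 0.11, FDR 1.96e-06, kept in 12 of 12, stem-summed FDR 0.0171) and -3.04 (SE 0.12, FDR 5.18e-07, kept in 12 of 12, stem-summed FDR 0.00136), and both calls held in every alternative. Its relative ARI7 (TRINITY_DN466_c0_g1) was higher with salt in exponential phase, at 0.48 (SE 0.09, FDR 0.00305, kept in 4 of 12, stem-summed FDR 0.433), and lower in stationary phase, at -0.46 (SE 0.09, FDR 0.00432, kept in 4 of 12, stem-summed FDR 0.298); the latter became 0.39 with its component summed and 0.12 under scaling to library totals.

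Other ligases turned with the growth phase. SP1 (TRINITY_DN4087_c0_g1), in Arabidopsis a ligase of the chloroplast outer envelope that acts on the protein import machinery, was at 55, 36.8 and 41.3 CPM in the freshwater exponential libraries, 7.64, 13.5 and 9.80 in freshwater stationary, 48.6, 36.9 and 49.8 in marine exponential and 72, 69.2 and 33.4 in marine stationary. Freshwater stationary libraries were the lowest, and marine stationary replicate 3 lay below replicates 1 and 2. Its change in freshwater was -2.11 (SE 0.32, FDR 0.00185, kept in 12 of 12, stem-summed FDR 0.0559), and its salt effect in stationary phase was 2.50 (SE 0.33, FDR 0.000404, kept in 12 of 12, stem-summed FDR 0.0333); the latter held in every alternative. The gene named At3g02290 (TRINITY_DN66_c0_g1), a RING-type ligase, was at 127, 125 and 129 CPM in the freshwater exponential libraries, 32, 39.9 and 37.8 in freshwater stationary, 68.4, 69.1 and 68.2 in marine exponential and 64.4, 74.1 and 82.2 in marine stationary. Freshwater exponential libraries were the highest and freshwater stationary ones the lowest. Salt lowered it in exponential phase, at -0.89 (SE 0.12, FDR 0.000386, kept in 12 of 12, stem-summed FDR 0.238), and raised it in stationary phase, at 1.01 (SE 0.12, FDR 0.000199, kept in 12 of 12, stem-summed FDR 0.0136); the change in freshwater, at -1.79 (SE 0.12, FDR 1.07e-05, kept in 12 of 12, stem-summed FDR 0.00337), and the stationary salt effect held in every alternative. The ubiquitin conjugation factor E4 (TRINITY_DN2848_c0_g1), which lengthens ubiquitin chains, was at 20.9, 27.7 and 31.4 CPM in the freshwater exponential libraries, 64.8, 70.8 and 63.2 in freshwater stationary, 43, 44.5 and 45.5 in marine exponential and 40.0, 42 and 43.3 in marine stationary. It rose in freshwater by 1.31 (SE 0.15, FDR 0.00026, kept in 12 of 12, stem-summed FDR 0.0838).

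CSU1 (TRINITY_DN2329_c0_g1), in Arabidopsis named as a suppressor of a mutant of the light-signalling ligase COP1, was the 1 member called between the marine phases. It was at 132, 101 and 93.7 CPM in the freshwater exponential libraries, 130.1, 135 and 136 in freshwater stationary, 259, 236 and 250.1 in marine exponential and 124, 116 and 171 in marine stationary. Its change in marine medium was -0.86 (SE 0.17, FDR 0.032, kept in 2 of 12, stem-summed FDR 1) and its salt effect in exponential phase was 1.19 (SE 0.17, FDR 0.000573, kept in 12 of 12, stem-summed FDR 0.0559). RHF1A (TRINITY_DN12602_c0_g1) was higher with salt in both phases, at 1.28 (SE 0.13, FDR 7.2e-05, kept in 12 of 12, stem-summed FDR 0.0695) and 1.26 (SE 0.13, FDR 9.47e-05, kept in 12 of 12, stem-summed FDR 0.0218); the latter held in every alternative. FANCL (TRINITY_DN521_c0_g1), named after the ligase of the human Fanconi DNA repair pathway, was lower with salt in both phases, at -1.48 (SE 0.12, FDR 1.05e-05, kept in 12 of 12, stem-summed FDR 0.103) and -0.96 (SE 0.11, FDR 0.000208, kept in 12 of 12, stem-summed FDR 0.162). XBOS32 (TRINITY_DN956_c0_g1) was higher with salt in exponential phase, at 1.00 (SE 0.15, FDR 0.000857, kept in 8 of 12, stem-summed FDR 0.147), and lower in stationary phase, at -0.62 (SE 0.15, FDR 0.0137, kept in 4 of 12, stem-summed FDR 0.279). LUL1 (TRINITY_DN2903_c0_g1) was lower with salt in stationary phase, at -1.09 (SE 0.21, FDR 0.0042, kept in 12 of 12, stem-summed FDR 0.106). A group of 7 genes named UPL, after HECT-type ligases of plants, was picked out after its values were seen, so its counts are a description. With salt in exponential phase 6 were higher, beside 25.0% of the well-counted genes, with log2 fold changes of all 7 from 0.41 to 1.52. Of these, 5 share the name UPL3 and 3 share an assembly component, so they are not independent. In stationary phase 2 of the 7 were higher and 0 lower, beside 19.8% and 28.8%, with a median of 0.07.

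Deubiquitinases numbered 16 tested genes outside the short group. In freshwater 7 rose and 5 fell on entry into stationary phase, and salt in stationary phase raised 2 and lowered 6. In freshwater these are 43.8% and 31.2%, beside 19.2% and 15.5% of the well-counted genes, and with salt 12.5% and 37.5%, beside 19.8% and 28.8%. Ubiquitin C-terminal hydrolase 22 (TRINITY_DN4475_c0_g1), in Arabidopsis the enzyme that removes ubiquitin from histone H2B in the SAGA-type module, was at 189, 265 and 227 CPM in the freshwater exponential libraries, 645, 659 and 663 in freshwater stationary, 255, 269 and 263 in marine exponential and 105, 104 and 219 in marine stationary. Freshwater stationary libraries were far above the others, and marine stationary replicate 3 stood near the exponential libraries. It rose in freshwater by 1.53 (SE 0.26, FDR 0.00346, kept in 12 of 12, stem-summed FDR 0.0414), and the salt effect in stationary phase was -2.20 (SE 0.27, FDR 0.000245, kept in 12 of 12, stem-summed FDR 0.0124); both calls held in every alternative. Isozyme L3 (TRINITY_DN4308_c0_g1), in mammals a processor of ubiquitin precursors, moved the other way. It was at 1599, 1307 and 962 CPM in the freshwater exponential libraries, 466, 416 and 511 in freshwater stationary, 1378, 1223 and 1299 in marine exponential and 939, 894 and 1109 in marine stationary. Freshwater stationary libraries were the lowest, with a change of -1.47 (SE 0.18, FDR 0.000444, kept in 12 of 12, stem-summed FDR 0.0119) in freshwater and a salt effect in stationary phase of 1.08 (SE 0.18, FDR 0.00176, kept in 12 of 12, stem-summed FDR 0.0249), both held in every alternative. Hydrolase 5 (TRINITY_DN3620_c0_g1), named after the mammalian enzyme that takes apart free ubiquitin chains, was at 25.9, 31.5 and 33 CPM in the freshwater exponential libraries, 82.2, 67.3 and 74.9 in freshwater stationary, 45.3, 45.8 and 47.3 in marine exponential and 45.2, 45.1 and 44.8 in marine stationary. It rose in freshwater by 1.31 (SE 0.12, FDR 9.05e-05, kept in 12 of 12, stem-summed FDR 0.066). FAF-X (TRINITY_DN436_c0_g1) rose by 1.21 (SE 0.13, FDR 0.000208, kept in 12 of 12, stem-summed FDR 0.0643), and MINDY-1 (TRINITY_DN1042_c0_g1) by 0.78 (SE 0.10, FDR 0.000703, kept in 8 of 12, stem-summed FDR 0.312); with salt in stationary phase MINDY-1 was lower, at -0.88 (SE 0.10, FDR 0.000193, kept in 12 of 12, stem-summed FDR 0.196).

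Genes of the related modifiers and their enzymes numbered 16 tested outside the short group. On entry into stationary phase in freshwater 7 rose and 2 fell, and 13 of the 16 lay above 0. Salt in stationary phase raised 4 and lowered 4, so there they did not share a direction. The freshwater calls are 43.8% and 12.5%, beside 19.2% and 15.5% of the well-counted genes, and the salt calls 25.0% each way, beside 19.8% and 28.8%. SCE1 (TRINITY_DN187_c0_g1), the SUMO-conjugating enzyme of Arabidopsis, was at 185, 176 and 178 CPM in the freshwater exponential libraries, 73.1, 68.1 and 72.2 in freshwater stationary, 105, 107 and 98.3 in marine exponential and 93, 94.2 and 86.6 in marine stationary. Its change in freshwater was -1.34 (SE 0.09, FDR 7.81e-06, kept in 12 of 12, stem-summed FDR 0.00546), which held in every alternative, and salt lowered it in exponential phase, at -0.80 (SE 0.09, FDR 9.13e-05, kept in 12 of 12, stem-summed FDR 0.262), and raised it in stationary phase, at 0.36 (SE 0.08, FDR 0.0127, kept in 9 of 12, stem-summed FDR 0.179). The SUMO protease ULP2A (TRINITY_DN554_c0_g1) was at 21.2, 19 and 18 CPM in the freshwater exponential libraries, 47.4, 61.8 and 42.2 in freshwater stationary, 88.2, 84.4 and 80.2 in marine exponential and 81, 79.2 and 92.3 in marine stationary. It was lowest in freshwater exponential libraries, with a salt effect of 2.12 (SE 0.15, FDR 6.98e-06, kept in 12 of 12, stem-summed FDR 0.0145), held in every alternative, and a rise in freshwater of 1.38 (SE 0.15, FDR 0.000225, kept in 12 of 12, stem-summed FDR 0.0601). The NEDD8-conjugating Ubc12-like gene (TRINITY_DN2203_c0_g1) was higher with salt in stationary phase, at 0.94 (SE 0.13, FDR 0.000671, kept in 12 of 12, stem-summed FDR 0.0457), held in every alternative. Modifier-activating enzyme 5 (TRINITY_DN83_c0_g4), which activates UFM1, was at 140.4, 118 and 176 CPM in the freshwater exponential libraries, 539, 286 and 298 in freshwater stationary, 63.7, 65.3 and 68.4 in marine exponential and 68.2, 61.6 and 83 in marine stationary. Marine libraries were all below freshwater ones, with -2.40 (SE 0.25, FDR 0.000105, kept in 12 of 12, stem-summed FDR 0.0131) in stationary phase, held in every alternative.

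Among the other members, the gene named ubiquitin recognition factor in ER-associated degradation protein 1 (TRINITY_DN78_c1_g1), which is UFD1, a cofactor of the segregase Cdc48, was at 52.7, 63 and 59.8 CPM in the freshwater exponential libraries, 274, 215 and 212 in freshwater stationary, 138, 142 and 135 in marine exponential and 116, 113 and 174 in marine stationary. The freshwater exponential libraries were the lowest and the freshwater stationary ones the highest. It rose in freshwater by 2.00 (SE 0.18, FDR 6.72e-05, kept in 12 of 12, stem-summed FDR 0.00541), and with salt in exponential phase by 1.24 (SE 0.18, FDR 0.000616, kept in 12 of 12, stem-summed FDR 0.0371), both held in every alternative, and it was lower with salt in stationary phase, at -0.80 (SE 0.17, FDR 0.00902, kept in 10 of 12, stem-summed FDR 0.224). Ubiquitin domain-containing protein 2 (TRINITY_DN1260_c0_g1) rose in freshwater by 1.03 (SE 0.17, FDR 0.00318, kept in 12 of 12, stem-summed FDR 0.0621). A leucine-rich repeat protein with a ubiquitin-like domain (TRINITY_DN774_c0_g1) was lower with salt in both phases, at -1.88 (SE 0.25, FDR 0.000403, kept in 12 of 12, stem-summed FDR 0.128) and -1.93 (SE 0.25, FDR 0.000383, kept in 12 of 12, stem-summed FDR 0.0367), the latter held in every alternative.

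**Figure D5:**
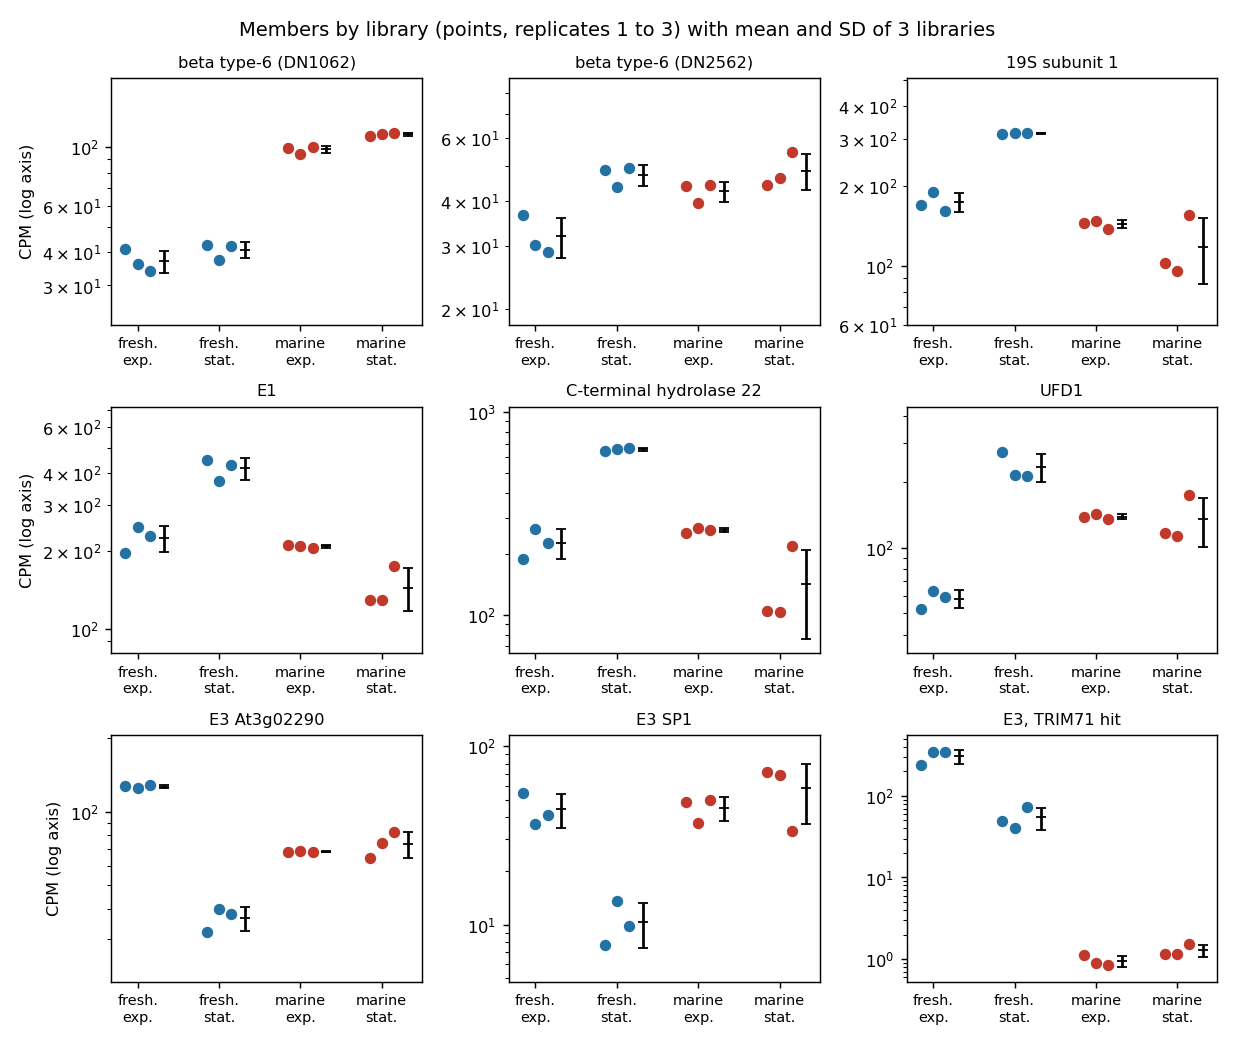
Levels (CPM, log axes that differ between panels) of 9 members in the 4 groups; points are the 3 libraries of a group in the order of their replicate numbers, blue for freshwater and red for marine, and the bar beside them is the mean with the SD. Hydrolase 22 and the E1 peak in freshwater stationary libraries, SP1 is lowest there at 7.64 to 13.5 CPM, and the gene with the TRIM71 hit is near 1 CPM in all 6 marine libraries.

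Genes around the system were counted from lists of names, among those outside the members with the minimum in both media. Of 6 genes named after Cdc48 or its cofactors, 0 were called between the freshwater phases, where 19.2% of the well-counted genes rose and 15.5% fell. With salt 1 of the 6 was higher and 0 lower in exponential phase, beside 25.0% and 23.1% of the well-counted genes. In stationary phase 1 was higher and 1 lower, beside 19.8% and 28.8%. The lower one was the main Cdc48 gene (TRINITY_DN360_c1_g2), with a log2 fold change of -0.57 (FDR 0.00761). The higher one was a gene named Cdc48 homolog B (TRINITY_DN118_c0_g1), at 1.05 (FDR 0.0119). Of 9 genes of the COP9 signalosome and the anaphase-promoting complex, 4 rose and 1 fell in freshwater, 44.4% and 11.1% beside 19.2% and 15.5% of the well-counted genes. Both SKP1 genes, the link between cullin and F-box protein, were higher with salt in both phases, beside 25.0% and 19.8% of the well-counted genes. SKP1-like protein 20 (TRINITY_DN517_c1_g2), at means of 5.22 and 5.93 CPM in the freshwater groups, had log2 fold changes of 2.23 and 1.88. SKP1-like protein 1B (TRINITY_DN1230_c0_g1) had 0.46 (FDR 0.0177) and 0.39 (FDR 0.0325). Of 2 genes of degradation at the endoplasmic reticulum, 1 was lower with salt in each phase, beside 23.1% and 28.8% of the well-counted genes. Autophagy, the other route of protein breakdown, had 11 such genes, of which 5 were higher and 1 lower with salt in exponential phase, or 45.5% and 9.09%. Of 41 genes of organelle proteases 12 were higher and 15 lower in the same comparison, or 29.3% and 36.6%, and of 24 heat shock and chaperonin genes 1 was higher and 8 lower, or 4.17% and 33.3%. These shares stand beside 25.0% and 23.1% of the well-counted genes and 11.8% and 9.34% of all tested genes of both media.

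The names of the system were not all found in both media. A set of 179 genes that matched the names had the minimum in freshwater only, 10 in marine medium only and 14 in neither. The 179 summed to 691, 225 and 1050 CPM in freshwater exponential libraries and 940, 987 and 449 in freshwater stationary ones, and to at most 3.65 CPM in any marine library. Their best hits came from Arabidopsis thaliana and Homo sapiens in 39 genes each, and 22 had a mammalian hit at 95% similarity or more. Of the 10 genes found in marine medium only, 8 had such a hit. Just inside the minimum lay hydrolase 12 (TRINITY_DN45994_c0_g1), with 44.7 counts in freshwater and 16.3 in marine medium, hydrolase 11 (TRINITY_DN52331_c0_g1), with 16.5 and 32.8, and E2 D3 (TRINITY_DN15921_c0_g1), with 22.8 and 17.8. Just outside lay 19S subunit 3 (TRINITY_DN57605_c0_g1), with 47.0 and 12.98 counts, SUMO-activating enzyme subunit 2 (TRINITY_DN42024_c0_g1), with 22.4 and 12.4, and 19S subunit 13 (TRINITY_DN24461_c0_g1), with 12.4 and 26.6.

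At an adjusted p under 0.05 the authors' deposited table has, of the members, 41 higher and 17 lower with salt in exponential phase. For stationary phase the authors' deposited table has 15 higher and 75 lower. For the interaction the authors' deposited table has 5 higher and 75 lower, where 6 and 39 were called here. All 54 members called in both that table and here for exponential phase, all 59 for stationary phase and all 44 for the interaction, had the same direction. Over all genes the log2 fold changes of the authors' deposited table minus those here had a median of -0.11 in exponential and -0.40 in stationary phase and -0.30 for the interaction, and over the members of -0.11, -0.40 and -0.30.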

How the data were processed

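Poly(A)-selected RNA of 12 libraries was sequenced as paired reads, per the labels and the design text. The authors deposited estimated counts per assembled gene (expected counts) made with RSEM 1.3.2 and Bowtie on a Trinity assembly, per the submitters' processing notes and design text; these are not normalised. The deposited annotation gives for each best hit a percent similarity. The deposited comparison table holds the mean signal per group after the authors' SVCD scaling, log2 fold changes and adjusted p-values of DESeq2 1.20.0, per the design text and the processing notes; log2 fold changes and p-values were used here only for counts of calls and for the shift between scalings. No genome position is given, since the assembly has no reference.

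Expected counts were rounded to whole numbers and low genes were removed by edgeR's filterByExpr. R 4.3.3 and edgeR 4.0.16 were used, with TMM scaling and a mean for each of the 4 groups over all 12 libraries. P-values are 2-sided, from the quasi-likelihood test, with Benjamini-Hochberg adjustment over all 31491 tested genes. With 3 libraries against 3, no exact permutation p falls below 0.1. Each library held 9378062 to 11280675 counts, and intervals of precision come from the spread between libraries. Python 3.11.15 with matplotlib 3.10.9 read tables and drew figures. DESeq2 1.42.0, its size factors, library totals, no filter, only the compared libraries, a replicate block, shared-stem libraries summed, assembly components summed, genes of both media only, a stricter minimum count or E-value and each library left out were alternatives; library totals, and leaving out short mammalian-hit members or 1 of an identical pair, were added after seeing the data. The fit was tested on simulated data.

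The members and lists were chosen with earlier results of these data known. Named genes were the 2 with the highest mean in each role, the 6 with the smallest p in each direction of each comparison among called members whose mean log2 CPM was 3 or more, all 20S and 19S subunits, and those next to the minimum. Replicate numbers did not pair the samples, so no block is in the fit.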

Additional observations from a re-analysis of the deposited data

Results flagged for a closer look

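The salt effects of exponential and stationary phase differed for 45 members by the test of the difference itself. Of the members named in the results, 30 were among them, and the values below are the salt effect in stationary phase minus that in exponential phase on the log2 scale, each at an FDR under 0.05 in edgeR's quasi-likelihood test. With the shared-stem libraries summed none of the 30 was called.

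Lower salt effects in stationary phase were found for these 19S subunits: -0.95 for subunit 4 homolog A, -1.19 for subunit 6A, -0.67 for subunit 6B, -1.15 for non-ATPase subunit 1, -1.11 for non-ATPase subunit 2 and -0.76 for non-ATPase subunit 6. With assembly components summed the values turned to 0.038 for subunit 6B and 0.83 for non-ATPase subunit 2, and that of non-ATPase subunit 6 came to -0.21. Along the ubiquitin path the values were -1.13 for ubiquitin, -1.43 for the E1, -1.32 for E2 2, -1.17 for cullin-3A, -1.96 for CAND1 and -1.09 for Tubby-like F-box protein 5. With components summed that of CAND1 came to -0.058. For ligases they were -1.15 for CSU1, -1.16 for ARI2, -0.94 for ARI7, -1.63 for XBOS32 and -1.40 for the conjugation factor E4. With components summed that of ARI7 came to -0.39. Deubiquitinases had -1.30 for FAF-X, -2.41 for hydrolase 22, -1.35 for hydrolase 5 and -0.89 for MINDY-1. Further values were -1.38 for the SUMO protease ULP2A, -1.28 for ubiquitin domain-containing protein 2 and -2.04 for UFD1.

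Higher salt effects in stationary phase were 1.90 for At3g02290, 2.47 for SP1, 2.93 for the TRIM71 hit, 1.07 for hydrolase isozyme L3, 0.64 for the proteasome inhibitor and 1.16 for SCE1. For the TRIM71 hit both effects were negative, and the value says that the stationary one was the smaller. With 1 library left out in turn, 8 of the 30 calls held each time.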

How the results depend on the processing

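Counts of called members in the order salt in exponential phase, salt in stationary phase, phase in freshwater, phase in marine medium and difference between the salt effects were 58, 70, 66, 1 and 45. With the shared-stem libraries summed they were 9, 18, 6, 0 and 0; that setting leaves groups with fewer libraries, down to 1 in marine exponential, which is assumed to vary like the other groups. Library totals alone gave 107 for salt in exponential phase and 3 between the marine phases. An E-value of at most 1e-30 gave 36 and 41 for the salt effects and 0 between the marine phases, by construction over fewer members. Summing assembly components gave 40 in freshwater, 4 in marine medium and 23 for the difference, and no low-count filter gave 41 in freshwater and 0 in marine medium; the cause was not tested. Between the marine phases DESeq2 size factors gave 0, the DESeq2 test 10 and only the compared libraries 2. With 1 library left out the counts ran from 29 to 65, 43 to 79, 25 to 67, 0 to 19 and 10 to 64. Other settings gave counts within 1.5 times of those reported. The replicate block, with numbers that do not pair the samples (correlations of deviations from -0.053 to 0.036), gave 54, 55, 48, 0 and 36.

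Of 143 calls of named members, 70 held with each library left out, 32 with the shared-stem libraries summed and 31 in every alternative. With components summed the CAND1 difference between the salt effects shrank to -0.058. Directions that turned with components summed were subunit 6B (-0.10 for salt in exponential phase, -0.063 in freshwater, 0.038 for the difference), 19S subunit 2 (-1.17 in freshwater, 0.83 for the difference), CAND1 (-0.86 for salt in exponential phase), ARI7 (0.39) and polyubiquitin (0.20, both for salt in stationary phase). Library totals alone turned stationary salt effects of 19S subunit 8 (0.075, both identical genes), 13 (0.13) and 14 (0.19), beta type-5-B (0.12), ARI7 (0.12) and FAF-X (0.039). Scaling was set anew in each fit: without 1 marine exponential library the median of genes of both media between the freshwater phases moved by -0.23, although that library is not in the comparison.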
